A study of Homo sapiens with 72 samples.

Results

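The genes described here are 45 genes of the G1/S transition and of DNA replication, taken by symbol from a list of such genes out of the 60371 genes in the deposited files. Each Ensembl identifier was matched to 1 symbol, and all 45 genes were found and tested in every comparison below. They fall into 7 roles: origin licensing with 11 genes, helicase activation with 8, the sliding clamp and its loader with 6, polymerases and primase with 8, single-stranded DNA binding with 3, nucleotide supply with 4, and a last group of 5 genes for fragment maturation, fork stability and chromatin assembly.

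The RNA came from U2OS, an established human osteosarcoma cell line, grown in 24-well plates and sequenced as 72 poly A-selected libraries, 1 library per well. All wells were harvested after 12 h of treatment. The 18 control wells received DMSO, the solvent. Each of 6 compounds was given at 100, 1000 and 10000 nM, with 3 wells for each compound and dose. Triptolide blocks transcription through the XPB subunit of TFIIH, and homoharringtonine blocks the elongation step of protein synthesis. Nilotinib inhibits the BCR-ABL tyrosine kinase, MK-2206 inhibits AKT, and pyrazolanthrone, also known as SP600125, inhibits JNK. Miglitol inhibits intestinal alpha-glucosidases. Every group was the same single cell line, and the sample labels name no engineered deletion or transgene. The comparisons thus concern 1 line only. The labels do not say that the wells were separate cultures on separate days, so the p-values measure the spread between wells, which may be technical.

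DNA replication begins when the origin recognition complex, CDC6 and CDT1 load the MCM2-7 helicase on origins in G1. In S phase the DBF4-dependent kinase CDC7 and cyclin-dependent kinases turn the loaded helicase into the active form by adding CDC45 and the GINS complex, and DNA polymerases then copy both strands behind the PCNA clamp. Many of these genes are transcribed together at the G1/S boundary under E2F transcription factors, and their mRNAs are used as a sign of proliferating cells.

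The promoters of 6 of these genes are shown, as examples of licensing factors, helicase subunits, the clamp and a chromatin assembly factor whose mRNAs are described with their wells or values below. Each is the stretch from 250 bases before to 50 bases after the gene's start in RefSeq on GRCh38.p14, read on the coding strand. Capitals mark the E2F letters, which were TTCCCGC in the first form, TTGGCGC in another, TTCGCGC in a further form and TTGCCGC in the last, searched on both strands. The regions are chr17:40287629-40287928 on the plus strand for CDC6, chr16:88803539-88803838 on the plus strand for CDT1, chr3:127598161-127598460 on the plus strand for MCM2, chr20:5126573-5126872 on the minus strand for PCNA, chr6:52284693-52284992 on the minus strand for MCM3 and chr19:4402390-4402689 on the plus strand for CHAF1A.
CDC6: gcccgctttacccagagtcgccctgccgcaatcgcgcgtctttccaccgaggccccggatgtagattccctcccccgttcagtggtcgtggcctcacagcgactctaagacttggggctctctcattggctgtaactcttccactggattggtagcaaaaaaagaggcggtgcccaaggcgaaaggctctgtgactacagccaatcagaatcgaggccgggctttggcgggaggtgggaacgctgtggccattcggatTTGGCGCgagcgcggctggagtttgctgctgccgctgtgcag
CDT1: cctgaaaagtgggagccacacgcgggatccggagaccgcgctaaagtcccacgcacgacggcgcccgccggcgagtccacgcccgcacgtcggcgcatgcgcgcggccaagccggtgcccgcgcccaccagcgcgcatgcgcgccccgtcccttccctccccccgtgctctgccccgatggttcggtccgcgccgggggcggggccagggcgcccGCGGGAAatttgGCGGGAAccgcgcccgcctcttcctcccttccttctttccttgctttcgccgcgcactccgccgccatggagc
MCM2: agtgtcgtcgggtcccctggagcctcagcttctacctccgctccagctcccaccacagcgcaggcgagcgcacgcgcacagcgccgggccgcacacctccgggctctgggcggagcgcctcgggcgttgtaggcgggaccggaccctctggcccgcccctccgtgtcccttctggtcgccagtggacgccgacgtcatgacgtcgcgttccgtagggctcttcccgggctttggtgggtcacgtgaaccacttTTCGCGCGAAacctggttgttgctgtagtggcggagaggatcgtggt
PCNA: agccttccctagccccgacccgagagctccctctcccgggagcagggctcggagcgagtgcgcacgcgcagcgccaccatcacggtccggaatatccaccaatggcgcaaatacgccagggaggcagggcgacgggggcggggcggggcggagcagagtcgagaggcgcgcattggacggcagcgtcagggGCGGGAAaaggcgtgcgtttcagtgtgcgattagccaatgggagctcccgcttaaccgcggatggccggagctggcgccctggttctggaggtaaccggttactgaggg
MCM3: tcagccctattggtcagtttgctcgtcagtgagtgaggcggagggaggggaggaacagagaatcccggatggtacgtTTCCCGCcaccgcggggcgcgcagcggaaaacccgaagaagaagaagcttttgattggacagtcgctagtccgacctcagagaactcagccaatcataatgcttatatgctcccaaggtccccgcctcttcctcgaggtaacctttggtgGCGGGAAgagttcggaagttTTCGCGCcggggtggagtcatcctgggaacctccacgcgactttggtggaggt
CHAF1A: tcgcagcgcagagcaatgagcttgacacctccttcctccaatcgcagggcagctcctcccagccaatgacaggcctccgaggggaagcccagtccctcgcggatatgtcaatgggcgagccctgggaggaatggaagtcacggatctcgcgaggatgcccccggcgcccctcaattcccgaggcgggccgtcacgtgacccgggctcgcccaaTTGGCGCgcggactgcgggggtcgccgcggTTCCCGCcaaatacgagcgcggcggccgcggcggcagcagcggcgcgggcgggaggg

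Promoters were found for 39 of the 45 genes, 1 promoter per gene, which was the first listed where RefSeq gave several. No entry was used for GINS4, MCM4, POLD3, MCM5, RPA2 and RPA3. The E2F letters stood in 29 of these 39 promoters, or 74.4%, against 13.1% of all 27305 promoters and 17.4% of the 15212 promoters of coding genes. Overlapping matches were counted separately, and 14 promoters held more than 1. The letters CCAAT stood in 22 promoters, or 56.4%, against 35.7% of all promoters and 36.6% of those of coding genes. The GC box GGGCGG stood in 28 promoters, or 71.8%, against 44.6% of all and 59.4% of those of coding genes. The letters TTTGAA or TTCGAA, the CHR element of genes of G2 and mitosis, stood in 3 promoters, or 7.7%. This compares with 16.6% of all promoters and 13.4% of those of coding genes. A match describes letters in this window and does not show that a factor binds there.

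The depth of the libraries ran from 70767 to 68296309 expected counts, and 3 libraries stood apart as shallow: triptolide 100 nM replicate 2 with 70767, DMSO replicate 10 with 460014 and triptolide 1000 nM replicate 1 with 9628355. In the triptolide 100 nM replicate 2 library 1 count was worth 12.0 CPM, counts scaled to a common library size,, and a count of 0 allowed up to 36.1 CPM, taking 3 counts as the limit. Such limits cover counting error only. Levels of mesenchymal and bone markers are given in TPM, a unit that also corrects for transcript length. Of these markers VIM, SPARC and COL1A1 had medians of 1870, 2140 and 452 TPM in DMSO wells. The others, RUNX2, ALPL, SP7, BGLAP and COL1A2, were low, with medians of 3.81, 3.79, 0, 0.425 and 0.07 TPM. Of the markers of other cell types, EPCAM had a DMSO median of 2.38 TPM, and CDH1, PTPRC, CD3E, PECAM1 and ALB had DMSO medians at or under 0.4 TPM, with highest DMSO wells of 3.73 for EPCAM, 1.19 for CDH1 and 1.33 for PTPRC. The summed level of the mesenchymal and bone markers was 3640 to 5260 TPM in DMSO wells, 5790 to 7060 with 10000 nM triptolide and 1250 to 1310 with 10000 nM homoharringtonine, and its part in the results was not tested. The mean share of counts on mitochondrially encoded mRNAs was 0.243% in DMSO wells and 0.562%, 0.935% and 1.09% with the 3 rising doses of triptolide.

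In DMSO wells 3 of the 4 nucleotide supply genes stood at the top on the TPM scale, which corrects for transcript length, and the fourth, RRM1, had a median of 98.9 TPM. TK1, which makes thymidine monophosphate in the salvage pathway, had the highest median level at 559 TPM, with 474 in its lowest and 695 in its highest well. TYMS, the thymidylate synthase, followed at 386 TPM (329 to 602), and RRM2, the small subunit of ribonucleotide reductase, at 332 TPM (231 to 372), so that the ranges of these neighbours overlapped. The replicative helicase subunits MCM7 and MCM4 came next with 242 and 188 TPM, then PCNA with 181, MCM3 with 178 and FEN1 with 171. At the foot of the list were POLE2 with 14.1, the kinase CDC7 with 12.9 and POLA1, the catalytic subunit of the primase-bound polymerase, with 10.4 TPM (6.26 to 16.4). All 45 genes were thus detected in untreated cells, over a range from 10.4 to 559 TPM.

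**Figure D1:**
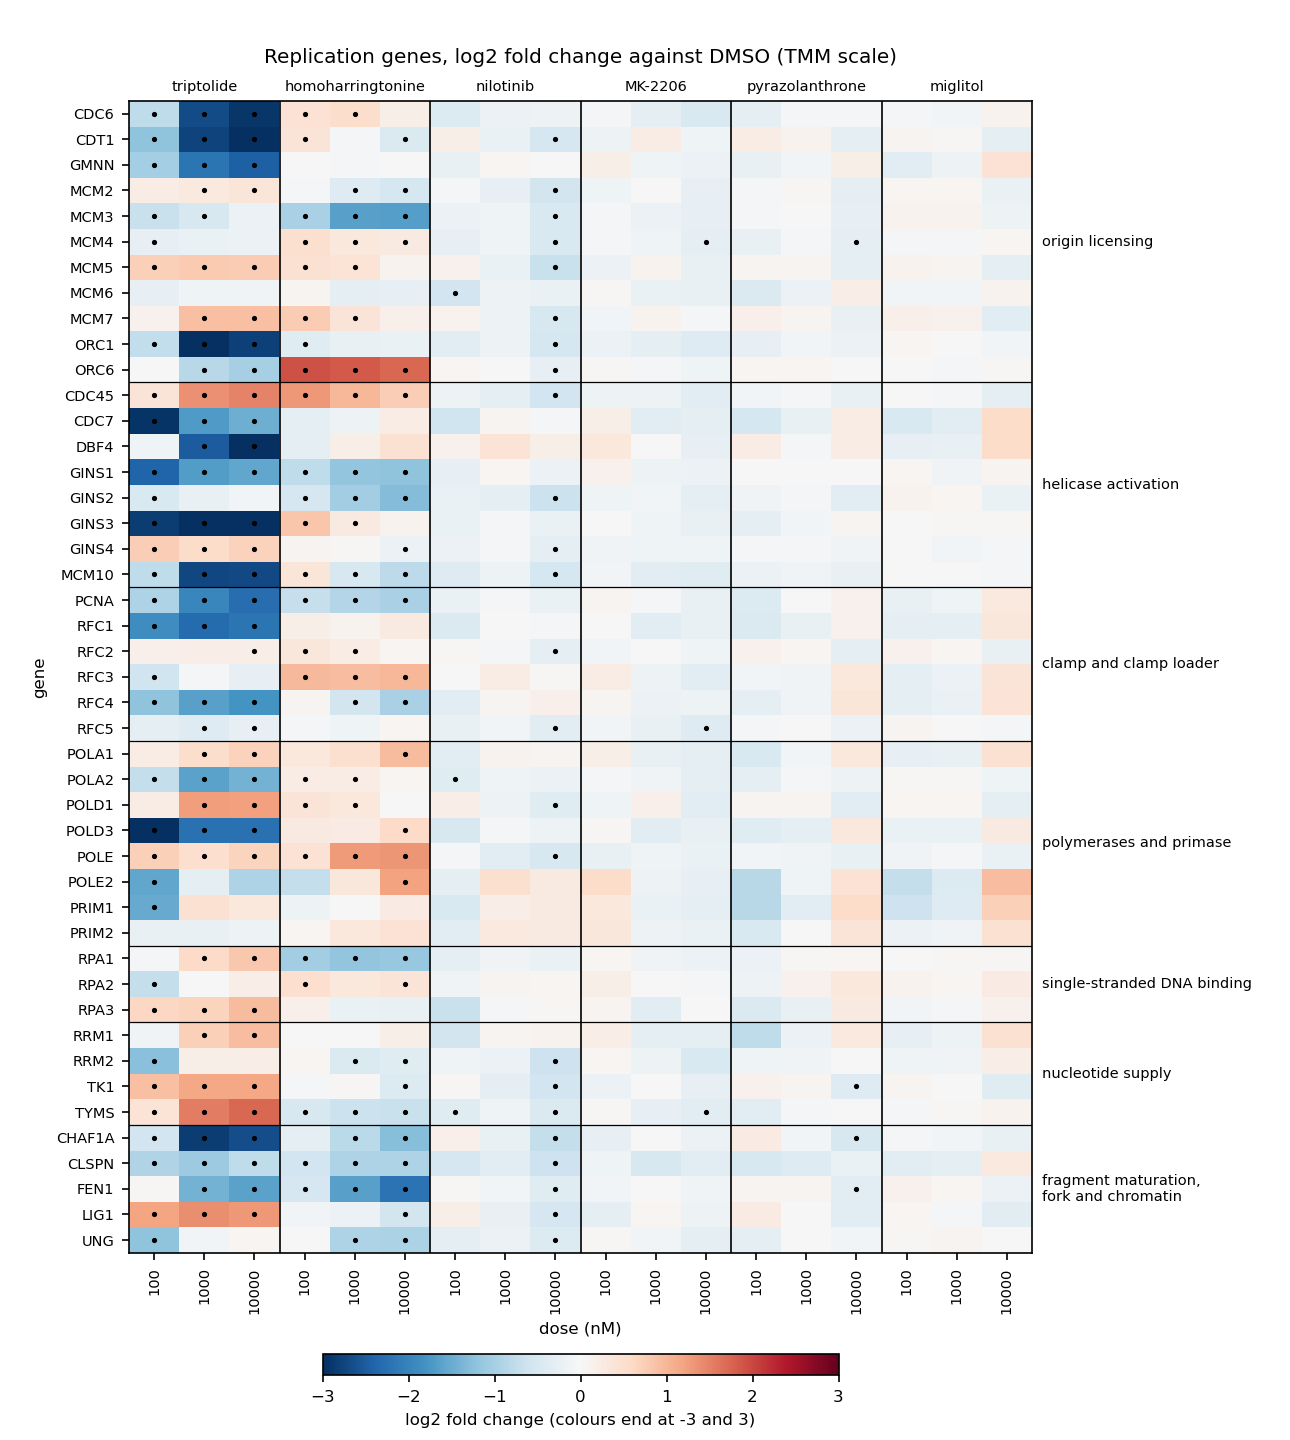
Log2 fold change of each of the 45 genes (rows, by role) with each compound and dose in nM (columns) against the 18 DMSO wells, on the TMM scale; colours end at -3 and 3, and dots mark an adjusted p under 0.05 in edgeR's quasi-likelihood test. Triptolide and homoharringtonine hold most of the dots, nilotinib has 24 at 10000 nM, all for lower levels, and miglitol has none; on a scaling to mitochondrial mRNAs all 45 genes were lower with triptolide at 10000 nM.

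Triptolide split the replication genes into a group that fell steeply and a group that rose on the TMM scale. At 10000 nM, 19 of 45 genes fell and 15 rose against DMSO in edgeR's quasi-likelihood test at an adjusted p under 0.05. The licensing factors CDT1, CDC6 and ORC1, the helicase activators GINS3, DBF4 and MCM10, the chromatin assembly factor CHAF1A and the clamp PCNA were among those that fell. The thymidylate synthase TYMS, the helicase cofactor CDC45 and the DNA ligase LIG1 rose most. Of all genes tested 39.7% fell and 32.2% rose, so the members' shares of 42.2% and 33.3% lay near the background and only the sorting of the members is described here. The median log2 fold change was -0.17 over the members and -0.17 over all genes tested.

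These values are on the TMM scale, which assumes that most genes keep their share. They are levels relative to most genes of a library, not amounts per cell. They are also not plain shares of a library, which scaling to library sizes alone gives. On that scaling the median of the members at 10000 nM was -0.71. A scaling to the sum of the 13 mitochondrially encoded mRNAs moved the median gene by -1.66, -2.47 and -2.76 log2 units at 100, 1000 and 10000 nM of triptolide, and scaling to library sizes alone moved it by -0.34, -0.46 and -0.53. DESeq2-type size factors moved it by 0.17 at 10000 nM. On the mitochondrial scaling all 45 genes fell at 10000 nM, from -7.36 for the lowest to -1.05 for the highest, with a median of -2.95, which is close to the shift of the median gene. A scaling multiplies all genes of a library by the same factor, so it moves the members together. The mitochondrial scaling takes the mitochondrial mRNAs as unchanged by the compound, which was not tested. In bulk RNA, fewer cells and less RNA per cell cannot be told apart.

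**Figure D2:**
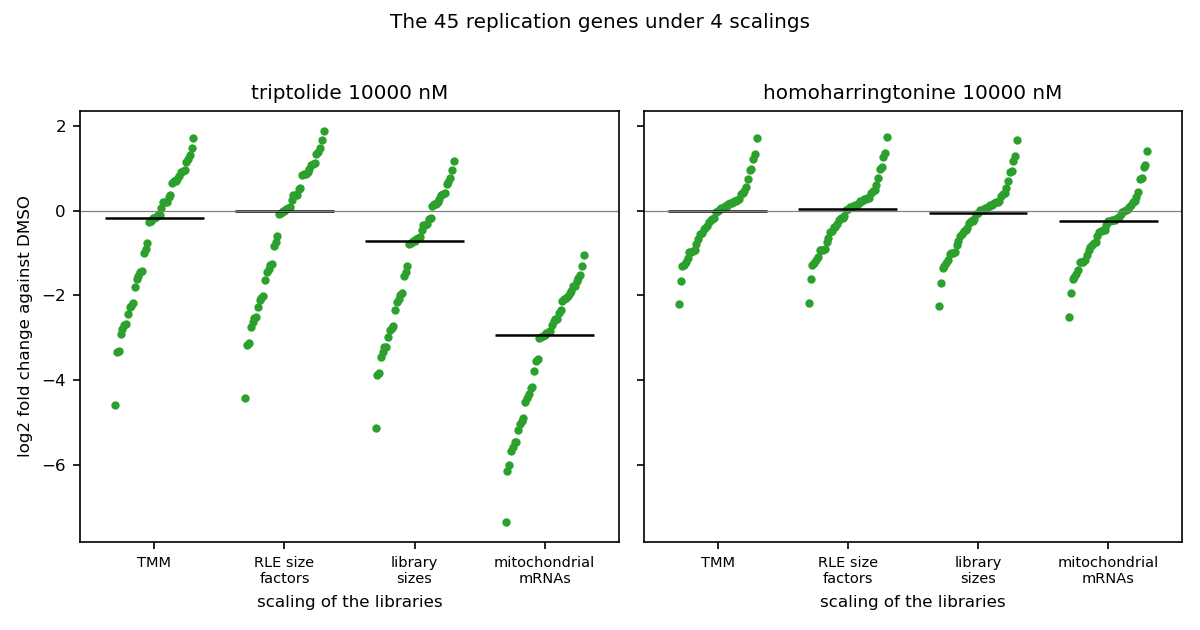
Log2 fold change of the 45 genes (points, sorted) against DMSO under 4 scalings of the libraries, for triptolide at 10000 nM (left) and homoharringtonine at 10000 nM (right); bars are medians. With triptolide the median moves from -0.17 with TMM to -2.95 with mitochondrial mRNAs, where no gene stays above 0, and with homoharringtonine from -0.01 to -0.23.

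Among the licensing genes, CDT1, which brings the helicase to origins, showed 9.96, 9.26 and 9.14 CPM in the 3 wells with 10000 nM triptolide, against 73.3 in the lowest, 92.6 in the median and 118 in the highest of 18 DMSO wells. All 3 treated wells lay far under every control well. The log2 fold change was -3.34 ± 0.18 (SE, adjusted p 1.77e-14). CDC6, the ATPase that loads the helicase together with the origin recognition complex, showed 24.3, 24.8 and 21.1 CPM against 98.1, 168 and 216 in DMSO, again with no overlap, and a log2 fold change of -2.92 ± 0.17 (SE, adjusted p 1.65e-13). ORC1, the largest subunit of the origin recognition complex, and GMNN, the geminin that holds CDT1 inactive after S phase begins, had values of -2.80 and -2.45 and fell too. Both the licensing factor and its inhibitor were therefore lower on the TMM scale.

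The helicase subunits themselves behaved otherwise than their loaders. MCM2 showed 376, 383 and 406 CPM with 10000 nM triptolide against 223, 301 and 338 in DMSO, a log2 fold change of 0.37 ± 0.09 (SE, adjusted p 0.0012). Its treated wells lay above every DMSO well on this scale, while library-size scaling gave -0.17 and the mitochondrial scaling -2.43. MCM5 and MCM7 rose by 0.75 and 0.90 on the log2 scale, and MCM3, MCM4 and MCM6 did not pass the test, with values of -0.18, -0.17 and -0.10. Of the 11 licensing genes 5 fell and 3 rose.

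GINS3, a subunit of the ring that joins MCM2-7 and CDC45, had the lowest value of the 45. Its wells held 1.78, 1.67 and 1.19 CPM against 24.5, 35 and 46.8 in DMSO, a 24.3-fold lower level and a log2 fold change of -4.60 ± 0.17 (SE, adjusted p 2.97e-17). The other GINS subunits did not follow it: GINS1 fell by 1.55, GINS2 stood at -0.09 without passing the test, and GINS4 rose by 0.70. DBF4, the activating subunit of the CDC7 kinase, showed 3.6, 2.9 and 4.04 CPM against 22.2, 28.6 and 69.2, and its log2 fold change was -3.30 ± 0.34 (SE, adjusted p 3.98e-09). CDC45 went the opposite way with 242, 251 and 269 CPM against 75.3, 86.7 and 99.8, a log2 fold change of 1.49 ± 0.08 (SE, adjusted p 1.52e-14). Genes whose products form 1 complex, the CDC45-MCM-GINS helicase, thus covered nearly the whole range of the list.

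PCNA, the ring that tethers polymerases to DNA, showed 36.1, 35.8 and 28.4 CPM against 73.6, 148 and 223 in DMSO, a log2 fold change of -2.29 ± 0.22 (SE, adjusted p 1.74e-09). The treated wells lay below all control wells. In the clamp loader, RFC1 and RFC4 fell by 2.18 and 1.80 while RFC2 rose by 0.20. Of the 8 polymerase and primase genes 2 fell, POLD3 and POLA2, and 3 rose, POLD1, POLA1 and POLE. The catalytic and accessory subunits of polymerase delta parted: POLD1 rose by 1.22 and POLD3 fell by 2.24.

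None of the 4 nucleotide supply genes fell at 10000 nM, and 3 rose. TYMS showed 1220, 1300 and 1270 CPM against 286, 381 and 444, a 3.29-fold higher level and a log2 fold change of 1.72 ± 0.08 (SE, adjusted p 1.24e-15). TK1 rose by 1.16 and RRM1, the large subunit of ribonucleotide reductase, by 0.93. RRM2 did not pass the test, with 296, 306 and 254 CPM against 172, 229 and 324 and a log2 fold change of 0.19 ± 0.13 (SE, adjusted p 0.174), and DESeq2 put it at 0.37 and past the threshold. LIG1, which seals Okazaki fragments, showed 349, 359 and 418 CPM against 119, 139 and 183, a log2 fold change of 1.31 ± 0.11 (SE, adjusted p 2.28e-10). On the mitochondrial scaling the 3 genes that rose most turned to -1.05 for TYMS, -1.31 for CDC45 and -1.51 for LIG1. TYMS overlaps ENOSF1 on the opposite strand by 3261 bases, and the strand setting of the authors' counting was not given in the sources used here, so its level is uncertain to that extent.

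Lower doses of triptolide gave a different order of the genes. At 100 nM, 24 genes fell and 8 rose, or 53.3% and 17.8% of the members, against 32.3% and 24.5% of all genes tested, with medians of -0.46 and -0.16. Without the shallow libraries 24 fell and 9 rose. At 1000 nM, 20 fell and 14 rose, against 38.6% and 28.8% of all genes, and without the shallow libraries these counts were again 20 and 14.

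Part of the genes deepened with dose and part did not. Over the 3 doses, 11 genes fell and 7 rose per 10-fold step in the trend fitted on 9 triptolide wells, a called share of 40.0% against 24.7% of all genes tested. DBF4 had the steepest fall, by 1.60 on the log2 scale per step (SE 0.19, adjusted p 0.000125), then CDC6 and CDT1, each by 1.10. CDC6 went from 115, 96.4 and 86.8 CPM at 100 nM to 32.0, 18.6 and 29.7 at 1000 nM. RRM2 had the highest slope of the genes that rose, 0.62 per step (adjusted p 0.0176), and its wells were lowest at the lowest dose, with 98.2, 108 and 99.8 CPM at 100 nM, all under the lowest DMSO well of 172. Its log2 fold change there was -1.26 ± 0.16 (SE, adjusted p 5.11e-07). The second well listed at 100 nM for CDC6 and for RRM2 is the shallow replicate 2, where 1 count was worth 12.0 CPM. The DMSO well of 172 CPM is the shallow replicate 10, and the next lowest held 206. The slope of PCNA was -0.70 and that of MCM2 0.02, the latter without passing the test. The trend rests on few wells: leaving out 1 replicate at a time left 6 to 10 genes that fell and 1 to 7 that rose, with 6 and 1 without replicate 1, 10 and 3 without replicate 2, and 6 and 7 without replicate 3.

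Further genes were lowest at 100 nM. POLD3, a polymerase delta subunit, showed 3.62 and 2.64 CPM in the deep wells and 0 in the shallow replicate 2, against 14 to 41.2 in DMSO, and its log2 fold change was -3.26 ± 0.28 (SE, adjusted p 7.68e-10), against -2.24 at both higher doses. CDC7 stood at 2.02, 0 and 2.64 CPM against 11.9 to 31.8, with log2 fold changes of -2.94, -1.70 and -1.46 with rising dose. GINS1 stood at 11.3, 0 and 8.15 CPM, with -2.40, -1.67 and -1.55. UNG, the uracil-DNA glycosylase, fell by 1.2 at 100 nM and was at -0.08 and 0.07 at the higher doses without passing the test. It overlaps ACACB on the same strand by 10139 bases, so reads could be split between them. The 0 values belong to the library in which a count of 0 allows 36.1 CPM. Of these 4 genes only UNG passed the test for a trend over doses, at 0.55 per 10-fold step (adjusted p 0.0123). These are values on the TMM scale, and each dose was scaled within its own fit.

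**Figure D3:**
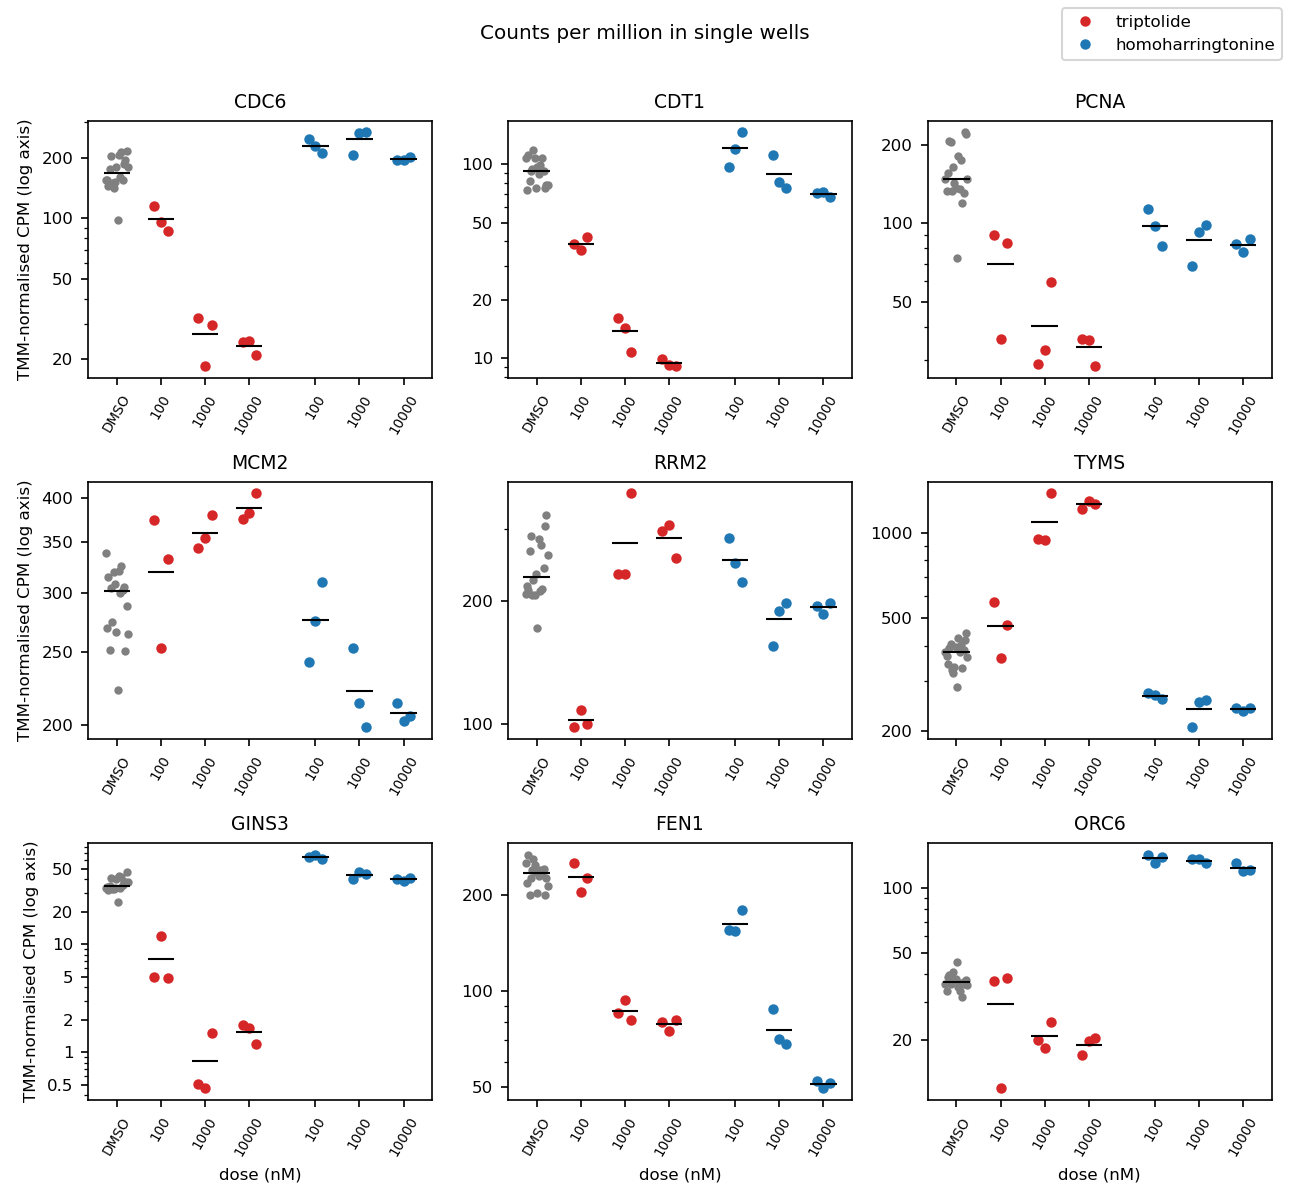
TMM-normalised CPM on a log axis in every single well for 9 of the genes. Shown are 18 DMSO wells (grey), triptolide (red) and homoharringtonine (blue) at 3 doses in nM, with 3 wells each. Bars are medians for DMSO and means for the treated wells. CDC6, CDT1, PCNA and GINS3 drop with triptolide, TYMS climbs from 381 CPM in DMSO to 1220 to 1300 at 10000 nM, ORC6 sits near 120 to 142 with every dose of homoharringtonine, and on the mitochondrial scaling TYMS and MCM2 are lower with 10000 nM triptolide.

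Homoharringtonine also moved replication genes in both directions, but along other lines than triptolide. At 10000 nM, 18 of 45 genes fell and 9 rose, against 37.2% and 36.7% of all genes tested. All 5 genes for fragment maturation, fork and chromatin fell and 4 of 8 polymerase and primase genes rose. The medians were -0.01 over the members and -0.05 over all genes. At 100 nM, 9 fell and 15 rose against 32.3% and 31.1% of all genes, and at 1000 nM, 14 fell and 12 rose against 33.4% and 35.0%.

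FEN1, the nuclease that trims the flaps of Okazaki fragments, fell most. Its wells at 10000 nM held 52.2, 49.5 and 51.4 CPM against 200, 235 and 268 in DMSO, a 4.65-fold lower level and a log2 fold change of -2.22 ± 0.09 (SE, adjusted p 4.35e-16). At 100 and 1000 nM the log2 fold changes were -0.50 and -1.62, so it fell step by step, by 0.87 per 10-fold dose in the trend (adjusted p 2.77e-05). FEN1 overlaps FADS2 on the same strand over 4259 bases, so reads could be split between them. MCM3, a helicase subunit, showed 110, 108 and 112 CPM against 205, 345 and 384, a log2 fold change of -1.66 ± 0.11 (SE, adjusted p 3.48e-12), although MCM4 rose by 0.27 and MCM5, MCM6 and MCM7 did not pass the test. GINS2 and CHAF1A fell by 1.31 and 1.27, and RPA1, the large subunit of the single-stranded DNA binding protein, fell by 1.13.

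ORC6, the smallest subunit of the origin recognition complex, rose to 130, 120 and 121 CPM against 31.5, 37.0 and 45.6 in DMSO, a 3.28-fold higher level and a log2 fold change of 1.71 ± 0.07 (SE, adjusted p 1.76e-16). It was as high at 100 nM, with 142, 130 and 138 CPM, so the wells of the lowest and highest dose met at 130. POLE, the catalytic subunit of the leading-strand polymerase, showed 278, 272 and 302 CPM against 93.5, 107 and 128, a log2 fold change of 1.34 ± 0.09 (SE, adjusted p 1.86e-12). POLE2, its small subunit, showed 35.6, 27.6 and 40.7 CPM against 3.5, 11.1 and 35.1, so that the groups overlapped, and its log2 fold change was 1.22 ± 0.35 (SE, adjusted p 0.00356). POLE2 stood at -0.13 once the GC slope of the libraries entered the fit. At this dose the slopes of the treated wells, -0.372 to -0.228, lay under the lowest DMSO well of -0.226. That fit thus extrapolates beyond the DMSO wells. CDC45 rose by 0.75, its value falling from 1.30 at 100 nM.

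The licensing pair CDC6 and CDT1, which fell with triptolide, moved by under 1 on the log2 scale at every dose. CDC6 showed 195, 195 and 202 CPM at 10000 nM, inside the DMSO range, with a log2 fold change of 0.18 ± 0.13 (SE, adjusted p 0.219), after rises of 0.43 and 0.52 at 100 and 1000 nM. CDT1 rose by 0.39 at 100 nM (adjusted p 0.0198), with 96.6, 120 and 146 CPM, stood at -0.05 at 1000 nM and fell by 0.42 per 10-fold step in the trend (adjusted p 0.00325). At 10000 nM CDT1 showed 70.6, 72.2 and 67.7 CPM, just under the lowest DMSO well of 73.3, and a log2 fold change of -0.43 ± 0.13 (SE, adjusted p 0.00467). That value was 0.02 with the GC slope as a covariate, in a fit that extrapolates beyond the GC slopes of the DMSO wells. MCM2 fell by 0.52 (adjusted p 1.96e-05) and PCNA by 0.97 (adjusted p 7.6e-05). The PCNA wells of 83.1, 77.8 and 86.6 CPM lay above only the shallow DMSO replicate 10, which held 73.6, and under the lowest other DMSO well of 119. RRM2 fell by 0.36 (adjusted p 0.0142), and TYMS, which rose with triptolide, fell by 0.68 to 241, 235 and 240 CPM.

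Across doses of homoharringtonine 15 genes fell and 2 rose, a called share of 37.8% against 44.0% of all genes tested. The genes that rose were POLE2 by 0.95 and POLE by 0.44 per 10-fold step. Leaving out replicate 2 left 5 that fell and 1 that rose. With the GC slope as a covariate 29 fell and 2 rose. The mean GC slope, the change in log2 CPM per 10 points of transcript GC content, was -0.28 in the wells with 10000 nM homoharringtonine and 0.18 in DMSO wells (-0.23 to 0.45), and its part in these results was not tested further.

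The contrast between the transcription and the translation inhibitor was tested well against well at each dose. At 10000 nM, 22 genes were lower and 20 higher with triptolide than with homoharringtonine, so that 42 of 45 differed, against 47.0% and 41.4% of all genes tested. The helicase activators GINS3 and DBF4 and the licensing factor CDC6 were lowest with triptolide relative to homoharringtonine, and TYMS, RPA1 and LIG1 were highest. All 4 nucleotide supply genes were higher and 5 of 6 clamp genes were lower. Only POLA1, RPA2 and PRIM1 did not pass the test, with values of -0.17, -0.09 and 0.17.

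GINS3 had a log2 fold change of -4.61 ± 0.13 (SE, adjusted p 1.24e-10), its homoharringtonine wells holding 39.8, 38.8 and 41.0 CPM. DBF4 followed with -3.68 ± 0.20 (SE, adjusted p 1.31e-08), from homoharringtonine wells of 43.6, 37.1 and 60.9 CPM, and CDC6 with -3.01 ± 0.08 (SE, adjusted p 9.12e-11). At the other end TYMS stood at 2.48 ± 0.06 (SE, adjusted p 4.98e-11), RPA1 at 2.02 ± 0.07 (SE, adjusted p 2.66e-10) and LIG1 at 1.94 ± 0.08 (SE, adjusted p 1.52e-09). RPA1 held 262, 275 and 273 CPM with triptolide and 69.2, 66.3 and 73.5 with homoharringtonine, and it overlaps SMYD4 on the opposite strand by 933 bases. CDT1 was at -2.82, PCNA at -1.23, MCM2 at 0.97 and RRM2 at 0.64, each past the threshold.

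At 100 nM, 20 genes were lower and 8 higher with triptolide, against 35.8% and 29.7% of all genes, and without the shallow libraries 20 and 9. At 1000 nM, 18 were lower and 13 higher, against 38.9% and 27.9%, and without the shallow library 15 and 12. Without replicate 2 the counts at 1000 nM were 12 and 5. CDC6 and CDT1 were lower with triptolide at every dose, with log2 fold changes of -1.11, -3.21 and -3.01 for CDC6 and of -1.51, -2.72 and -2.82 for CDT1. RRM2 changed side: it was lower by 1.27 at 100 nM and higher by 0.60 and 0.64 at 1000 and 10000 nM. MCM2 did not pass the test at 100 nM, at 0.36, and PCNA did not at -0.16.

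**Figure D4:**
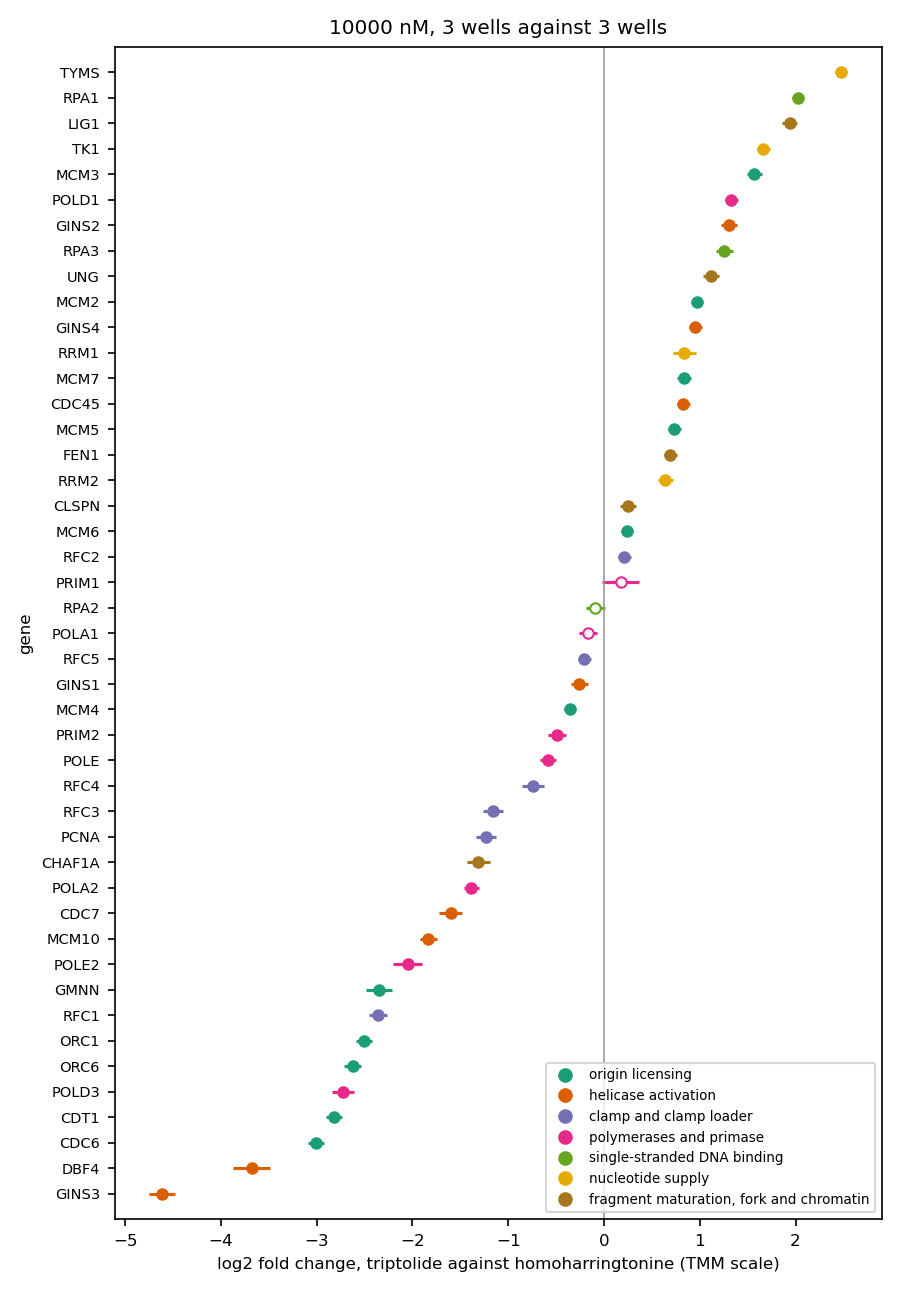
Log2 fold change with standard error of the 45 genes in 3 wells with triptolide against 3 wells with homoharringtonine at 10000 nM, on the TMM scale; colours give the role, and open points did not pass an adjusted p of 0.05. The genes spread from -4.61 for GINS3 to 2.48 for TYMS, and the 4 nucleotide supply genes all lie right of 0; library-size scaling moved the median gene by -0.58.

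Nilotinib at 10000 nM lowered many replication genes mildly, and the genes that passed the test all fell. There 24 of 45 genes fell and 0 rose, or 53.3%, against 6.39% of all genes that fell and 7.97% that rose. The median log2 fold change was -0.28 over the members and 0.01 over all genes tested. Of the 45 values, called or not, 34 were under 0. All 5 genes for fragment maturation, fork and chromatin fell, as did 8 of 11 licensing genes and 3 of 4 nucleotide supply genes. None of the 3 single-stranded DNA binding genes passed the test, and none of the 45 fell by more than 1 on the log2 scale.

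CHAF1A, the large subunit of the factor that places histones behind the fork, fell most. Its wells held 33.8, 33.4 and 36.0 CPM against 46.4, 56.4 and 71.1 in DMSO, with no overlap and a log2 fold change of -0.71 ± 0.13 (SE, adjusted p 0.000315). MCM5 showed 134, 152 and 160 CPM against 195, 233 and 293, a log2 fold change of -0.68 ± 0.12 (SE, adjusted p 0.000216). GINS2 showed 42.4, 47.3 and 50.4 CPM against 42.1, 75.6 and 81.1, where the lowest DMSO well was the shallow replicate 10 and the next lowest held 62.6, and its log2 fold change was -0.64 ± 0.11 (SE, adjusted p 0.00022). The decreases of these genes were thus larger than the spread between DMSO wells of full depth.

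RRM2 showed 163, 163 and 146 CPM against 172, 229 and 324, a log2 fold change of -0.61 ± 0.13 (SE, adjusted p 0.00184). MCM2 showed 172, 198 and 221 CPM against 223, 301 and 338, a log2 fold change of -0.56 ± 0.10 (SE, adjusted p 0.000317). CDT1 showed 61.6, 65.0 and 69.8 CPM against 73.3, 92.6 and 118, a log2 fold change of -0.49 ± 0.13 (SE, adjusted p 0.0124). In each of these genes all 3 treated wells lay under every DMSO well. CDC6 and PCNA did not pass the test: CDC6 stood at 151, 147 and 159 CPM with a log2 fold change of -0.16 (adjusted p 0.466), and PCNA at 142, 142 and 125 CPM with -0.21 (adjusted p 0.486).

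Lower doses of nilotinib gave few calls. At 100 nM 3 genes fell, MCM6 by 0.57, TYMS by 0.37 and POLA2 by 0.35, and 0 rose, against 3.58% and 5.5% of all genes. The count at 100 nM was 13 without replicate 1 and 0 without replicate 2 or 3, DESeq2 called 12, and the fit with the GC slope called 15. At 1000 nM edgeR called 0 of 45, against 1.44% and 2.51% of all genes, with 4 members at an unadjusted p under 0.05 and 3 called by DESeq2. The trend over the 3 doses called 1 gene, CHAF1A, with a slope of -0.44 (adjusted p 0.0285), against 3.09% of all genes. The call at 10000 nM was spread over the wells unevenly: without replicate 1 it was 12 genes, without replicate 2 16, and without replicate 3 19. The same fit with the GC slope called 32 genes, all lower. The mean GC slope was 0.0054 with 10000 nM nilotinib, and across the 45 genes the log2 fold change had a Pearson correlation of -0.71 with transcript GC content (-0.32 with the covariate). Genes are not independent replicates, and this value is a description.

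**Figure D5:**
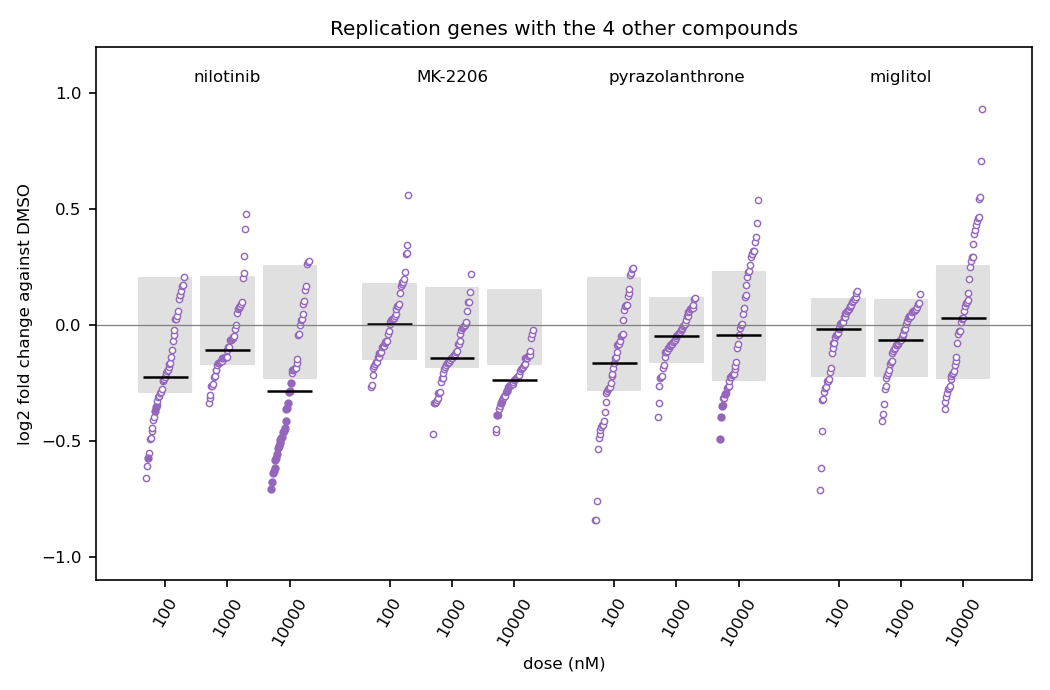
Log2 fold change against DMSO of the 45 genes (points, sorted) with nilotinib, MK-2206, pyrazolanthrone and miglitol at 100, 1000 and 10000 nM; filled points passed an adjusted p of 0.05, bars are medians, and grey boxes span the 25th to 75th percentile of all genes tested. Nilotinib at 10000 nM has the lowest median, -0.28, with 24 filled points, and MK-2206 at 10000 nM follows with -0.24 and 3.

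With MK-2206 at 10000 nM 3 genes were called, all lower: RFC5, a clamp loader subunit, by 0.39 (adjusted p 0.0432), TYMS by 0.34 (adjusted p 0.0447) and MCM4 by 0.28 (adjusted p 0.0431). Of all genes 3.15% were called. All 45 members had a value under 0, from -0.46 to -0.02, with a median of -0.24 against -0.02 over all genes. TYMS held 280, 322 and 289 CPM against 286, 381 and 444 in DMSO, so the groups overlapped. RRM2 stood at -0.46 and CDC6 at -0.45, with adjusted p of 0.0561 and 0.0959, and CDT1, MCM2 and PCNA lay at -0.13, -0.24 and -0.23 without passing the test. With the GC slope as a covariate 16 genes fell, DESeq2 called 10, and 9 were called without the shallow libraries, while leaving out any of the 3 replicates left 0. At 100 nM edgeR called 0 members against 0.0648% of all genes, with 0 at an unadjusted p under 0.05 and 0 by DESeq2. At 1000 nM it called 0 against 1.52%, with 6 at an unadjusted p under 0.05 and 3 by DESeq2. The trend over doses called 0 against 0.028% of all genes, with 8 at an unadjusted p under 0.05 and 0 by DESeq2.

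With pyrazolanthrone at 10000 nM 4 genes were called, all lower: CHAF1A by 0.49 (adjusted p 0.0146), TK1 by 0.40 (adjusted p 0.0433), FEN1 by 0.35 (adjusted p 0.00875) and MCM4 by 0.30 (adjusted p 0.0155), a share of 8.89% against 7.65% of all genes. CHAF1A held 39.0, 41.6 and 42.5 CPM, under the lowest DMSO well of 46.4. CDC6, CDT1, MCM2, PCNA and RRM2 stood at -0.04, -0.27, -0.27, 0.13 and 0.00 without passing the test. Without replicate 1 or without replicate 2, 0 members were called, and without replicate 3 it was 1. At 100 nM edgeR called 0 members against 4.77% of all genes, with 13 at an unadjusted p under 0.05 and 6 by DESeq2. At 1000 nM it called 0 against 0.0% of all genes, where 1033 of all genes had an unadjusted p under 0.05 and DESeq2 called 8, with 1 at an unadjusted p under 0.05 and 0 by DESeq2. The trend called 5 genes that fell and 6 that rose, against 18.6% of all genes, from -0.38 for CHAF1A to 0.68 for PRIM1, the primase subunit, and with the GC slope as a covariate 0.

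Against all 18 DMSO wells miglitol gave no call: edgeR called 0 of 45 at 100, 1000 and 10000 nM, against 0.0% of all genes at each, where 944, 1563 and 4195 of all genes had an unadjusted p under 0.05 and DESeq2 called 1, 120 and 3. Of the members DESeq2 called 0 at each dose, and 0, 0 and 20 members had an unadjusted p under 0.05. At 10000 nM the values ran from -0.36 to 0.93 and had a Pearson correlation of -0.86 with transcript GC content over the 45 genes, with a mean GC slope of -0.11 in these wells. The trend over its doses called 2 genes that fell, TK1 and RFC2, and 10 that rose, among them POLE2 by 0.83 and PRIM1 by 0.67, against 15.9% of all genes. With the GC slope as a covariate the trend called 0, and without replicate 1, 2 or 3 it called 0, 1 and 0.

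The 3 kinase inhibitors were compared with each other at 10000 nM. Nilotinib was lower than pyrazolanthrone in 10 genes, or 22.2%, against 10.3% of all genes called, and higher in 0. RRM2 differed most, with a log2 fold change of -0.61 ± 0.08 (SE, adjusted p 0.00118, 95% interval -0.78 to -0.44), from wells of 163, 163 and 146 CPM with nilotinib and 260, 260 and 224 with pyrazolanthrone. POLD3 and TYMS were lower by 0.45 and 0.44, and CLSPN, MCM6, MCM5, CDC45, ORC1, MCM10 and RPA2 by 0.27 to 0.41. Without replicate 2 this comparison called 0 genes and without replicate 1 it called 5. Between nilotinib and MK-2206 edgeR called 0 members against 5.63% of all genes, with 10 at an unadjusted p under 0.05 and 2 by DESeq2. Between pyrazolanthrone and MK-2206 it called 0 against 2.78%, with 18 at an unadjusted p under 0.05 and 8 by DESeq2. Here and for the single compounds, most counts of the latter kinds stand without the share of all genes. They do not show whether the members differed from other genes.

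The missing calls in the comparisons with MK-2206 do not show that the compounds act alike. The 95% interval for RRM2 ran from -0.41 to 0.09 between nilotinib and MK-2206 and from 0.21 to 0.73 between pyrazolanthrone and MK-2206, the latter with an adjusted p of 0.0727. For CDC6 the intervals were 0.03 to 0.52 and 0.16 to 0.66, for CDT1 -0.70 to -0.05 and -0.44 to 0.18, for MCM2 -0.60 to -0.05 and -0.24 to 0.19, and for PCNA -0.26 to 0.29 and 0.02 to 0.71. Over all 45 genes the median width on either side of the estimate was 0.28 for nilotinib against MK-2206 and 0.27 for pyrazolanthrone against MK-2206. Differences of that size and under could be missed for a typical member, and larger ones also went without a call after adjustment. Examples are CHAF1A at -0.56 between nilotinib and MK-2206 and PRIM1 at 0.83 between pyrazolanthrone and MK-2206. The intervals are not adjusted for the number of genes.

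The E2F letters in the promoters stood in the promoters of genes that moved either way. With triptolide at 10000 nM they stood in 13 of 18 promoters of genes that fell, 9 of 12 of genes that rose and 7 of 9 of the rest. With homoharringtonine they stood in 13 of 17, 4 of 6 and 12 of 16, and with nilotinib in 14 of 21 of genes that fell and 15 of 18 of the rest. GINS3 and TYMS, at opposite ends of the triptolide order, each held 1 match, while CDC45 and MCM10, which also moved in opposite directions, held 0. These counts are a description, without a test.

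Other genes of the same pathway, from lists chosen by function, were counted in the same way. Of 32 further replication genes, 13 fell and 9 rose with triptolide at 10000 nM, or 40.6% and 28.1% against 39.7% and 32.2% of all genes, among them ATAD5, which unloads PCNA, at -3.44, TICRR, which is needed to activate the helicase, at -3.26, and PCLAF, a PCNA partner, at 1.71. With homoharringtonine 8 fell and 11 rose, or 25% and 34.4% against 37.2% and 36.7% of all genes, with PCLAF at -1.07 and ORC4, an origin recognition subunit, at 2.06. With nilotinib 7 fell and 0 rose, or 21.9% against 6.39% of all genes that fell, with CHAF1B, the partner of CHAF1A, at -0.55. PCLAF thus had opposite signs with the 2 inhibitors, as did TYMS.

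Of 15 regulators of the G1/S transition, 10 fell and 5 rose with triptolide at 10000 nM. These are 66.7% and 33.3%, against 39.7% and 32.2% of all genes. CDKN1B, the CDK inhibitor p27, fell by 6.42 and CDC25A, the phosphatase that activates CDK2, by 5.37, while E2F1 rose by 1.26 and its dimer partner TFDP1 by 1.38. With homoharringtonine 9 fell and 2 rose, or 60% and 13.3%, against 37.2% and 36.7% of all genes. E2F2 stood at -2.76 and CDKN1A, the CDK inhibitor p21, at 1.28. With nilotinib 9 fell and 2 rose, again 60% and 13.3%, against 6.39% and 7.97% of all genes: CCNE2, a cyclin of the G1/S boundary, fell by 1.35, E2F2 by 1.25 and E2F1 by 0.84, and CDKN1A rose by 0.43. Of 20 genes of mitosis, 18 fell and 1 rose with triptolide, 5 fell and 8 rose with homoharringtonine, and 2 fell and 0 rose with nilotinib. These are 90% and 5.0%, 25% and 40.0%, and 10.0% and 0.0% of the list, against 39.7% and 32.2%, 37.2% and 36.7%, and 6.39% and 7.97% of all genes. The triptolide values are on the TMM scale. The 5 risers among the regulators, as the risers among the members, rose on that scale, relative to most genes of the library.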

How the data were processed

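RNA-seq was measured in 72 wells of U2OS cells. The authors deposited 1 table per library with RSEM expected counts and TPM for 60371 Ensembl genes, from stranded, poly A-selected libraries. The submitters' processing notes name RSEM, HTSeq, DESeq2 and the build GRCh38, and their versions and the strand setting are not given in the sources used here. The expected counts were rounded to whole numbers. The deposited TPM values were used only for levels in DMSO wells and for markers. Symbols, positions and GC content came from GENCODE release 44 of GRCh38, which held 56104 of the 60371 identifiers, and promoters came from RefSeq.

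Groups followed the GEO labels, also for the middle dose, for which the study's methods state another value than the labels; the middle-dose comparisons and the trends rest on the labels. Each dose of each compound (3 wells) was compared with all 18 DMSO wells, triptolide with homoharringtonine at each dose, and the 3 kinase inhibitors with each other at 10000 nM. Trends were fitted on log10 dose within a compound. All fits used edgeR 4.0.16 (R 4.3.3), its quasi-likelihood test, TMM factors and a filter with a smallest count of 10. P-values were adjusted by Benjamini-Hochberg over all genes tested, and a gene was called to rise or fall at an adjusted p under 0.05. Standard errors were taken as the absolute log2 fold change over the square root of the F statistic. Well values are TMM-normalised counts scaled to a common library size (CPM) over all 72 wells. The scripts were tested on simulated counts with known changes.

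The members and lists were chosen with earlier results of these data known. Named were the 3 lowest and 3 highest called genes with triptolide, homoharringtonine and nilotinib at 10000 nM and between the first 2 of these compounds, with CDC6, CDT1, MCM2, PCNA and RRM2 throughout, and any other of the 45 genes where a role was described. The labels tie no replicate number to a shared batch, and same-numbered wells did not all deviate together, so the numbers were not used as pairs. The alternatives were DESeq2 1.42.0, other scalings, filters, a fold threshold, a GC covariate, a replicate block, and leaving out shallow libraries or each replicate. The GC covariate in the trends and between kinase inhibitors was added after the data were seen. Tables were handled with Python 3.11.15, pandas 2.3.3 and matplotlib 3.10.9.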

Additional observations from a re-analysis of the deposited data

Results flagged for a closer look

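The effects of triptolide and homoharringtonine on single replication genes differed from each other when the wells of the compounds were compared directly at the same dose. This direct test called 28 of the 45 genes at 100 nM, 31 at 1000 nM and 42 at 10000 nM. Of all genes tested 35.8% were lower and 29.7% higher with triptolide at 100 nM, 38.9% and 27.9% at 1000 nM and 47.0% and 41.4% at 10000 nM, so the members lay near the shares of all genes.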

How the results depend on the processing

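For genes named with their values, 808 of 871 alternative values kept direction and side of the threshold, 28 were no longer past it, 19 came past it and 16 turned direction. For counts of members, 349 of 479 alternatives stayed within 1.5 times. Most counts under the alternatives and at an unadjusted p, here and above, are given without the share of all genes in the same fit. Such counts therefore do not show whether the members differed from other genes there. Other than where stated, the cause was not tested.

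A log2 fold change above 1 or below -1 kept 12 genes that fell with triptolide at 100 nM and 1, 5 and 5 that rose at the rising doses. It kept 1, 5 and 6 that fell and 2, 3 and 3 that rose with homoharringtonine, 0 with nilotinib at 100 and at 10000 nM, 0 with MK-2206 and 0 with pyrazolanthrone at 10000 nM, 3, 5 and 9 higher with triptolide than with homoharringtonine, and 0 between nilotinib and pyrazolanthrone. Asking for 10 counts in every well tested 11 members with triptolide at 100 nM, where 6 fell and 2 rose, and against homoharringtonine 6 fell and 1 rose. With this filter nilotinib called 9 and 1 at 100 and 1000 nM, MK-2206 1 at 10000 nM, pyrazolanthrone 1 and 7 at 100 and 10000 nM, and the triptolide trend 1 that fell and 2 that rose. MCM2 turned to -0.45 with triptolide at 100 nM and to -0.42 against homoharringtonine.

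Scaled to mitochondrial mRNAs, 43, 45 and 45 genes fell with rising triptolide and 0, 0 and 0 rose, while 4, 5 and 5 rose with homoharringtonine. LIG1 turned to -1.51, CDC45 to -1.31, TYMS to -1.05, MCM2 to -2.43 and RRM2 to -2.56 with triptolide at 10000 nM, MCM2 to -2.17 and RRM2 to -2.27 at 1000 nM and MCM2 to -1.39 at 100 nM. With library sizes alone 5, 7 and 9 rose with triptolide and 29 fell at 10000 nM, 14 fell and 6 rose with homoharringtonine at 100 nM and 6 rose at 1000 nM, nilotinib called 10 and 2 at 100 and 1000 nM, pyrazolanthrone 4 at 100 nM, triptolide was higher than homoharringtonine in 8 at 1000 nM, and 5 rose in the homoharringtonine trend. MCM2 turned to -0.17 and RRM2 to -0.34 with triptolide at 10000 nM, and MCM2 to -0.16 at 1000 nM.

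With the GC slope as a covariate 17 and 22 genes fell with homoharringtonine at 100 and 1000 nM, and the calls were 15 and 5 for nilotinib at 100 and 1000 nM, 2 and 16 for MK-2206 at 1000 and 10000 nM, 3 for pyrazolanthrone at 100 nM, 2 between nilotinib and MK-2206 and 35 between nilotinib and pyrazolanthrone. In the trends 11 rose with triptolide, 29 fell with homoharringtonine, and 6, 8, 0 and 0 were called with nilotinib, MK-2206, pyrazolanthrone and miglitol. POLE2 turned to -0.13 and CDT1 to 0.02 with homoharringtonine at 10000 nM, and CDT1 to 0.19 at 1000 nM. At 10000 nM the GC slopes of the homoharringtonine wells lay under those of all DMSO wells, so that fit extrapolates. With 3 wells against 3 this covariate recovered no change in data simulated for the triptolide and homoharringtonine wells at 10000 nM. Their GC slopes ran from 0.29 to 0.42 and from -0.37 to -0.23, without overlap. The covariate was therefore not used between these compounds. The simulation did not cover the pairs of kinase inhibitors or homoharringtonine against DMSO, so the covariate's calls there were not checked in this way.

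The mean correlation of same-numbered wells was -0.051 between compound and DMSO wells, 0.025 between doses, -0.07 between triptolide and homoharringtonine and 0.137 between kinase inhibitors, where 5 of 9 pairs were over 0.1 and wells of different numbers had -0.071. The replicate block, with DMSO wells 1 to 3 only, gave 6 and 14 genes that rose with homoharringtonine at 1000 and 10000 nM, 0 calls with nilotinib at 100 nM and with MK-2206 at 10000 nM, 27 with pyrazolanthrone and 32 with miglitol at 10000 nM, 36 between nilotinib and pyrazolanthrone, and 9 and 21 in the nilotinib and pyrazolanthrone trends. DESeq2 called 12 and 3 with nilotinib at 100 and 1000 nM, 3 and 10 with MK-2206 at 1000 and 10000 nM, 6 and 8 with pyrazolanthrone at 100 and 10000 nM, 2 between nilotinib and MK-2206, 8 between pyrazolanthrone and MK-2206, and, in the trends, 11 that rose with triptolide, 12 with nilotinib, 20 with pyrazolanthrone and 22 with miglitol. Without a filter on low counts nilotinib at 100 nM called 0, MK-2206 and pyrazolanthrone at 10000 nM 0 and 2, the 2 comparisons with MK-2206 1 for nilotinib and 7 for pyrazolanthrone, and 5 were higher with triptolide than with homoharringtonine at 100 nM. Without the 3 shallow libraries nilotinib at 100 nM called 8, MK-2206 1 and 9 at 1000 and 10000 nM, and pyrazolanthrone 2 and 7 at 100 and 10000 nM.

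Leaving out 1 replicate at a time, which leaves fewer wells, gave 5 to 9 genes that rose with triptolide at 100 nM (5 without replicate 1). Nilotinib gave 0 to 13 at 100 nM (13 without replicate 1, 0 without 2 or 3), 0 to 1 at 1000 nM (1 without replicate 2) and 12 to 19 at 10000 nM (12 without replicate 1). MK-2206 at 10000 nM gave 0 to 0, and pyrazolanthrone gave 0 to 3 at 100 nM (3 without replicate 1) and 0 to 1 at 10000 nM. Triptolide was higher than homoharringtonine in 5 to 15 at 1000 nM (5 without replicate 2), and the kinase pairs gave 0 to 5 for nilotinib and MK-2206, 0 to 8 for pyrazolanthrone and MK-2206 (5 and 8 without replicate 2) and 0 to 12 for nilotinib and pyrazolanthrone (0 without replicate 2). In the trends 6 to 10 fell and 1 to 7 rose with triptolide, 5 to 16 fell and 1 to 3 rose with homoharringtonine, and 0 to 5, 0 to 22 and 0 to 1 were called with nilotinib (5 without replicate 1), pyrazolanthrone (22 without replicate 1) and miglitol. CDT1 with nilotinib at 10000 nM was no longer past the threshold without replicate 1 or 2, at -0.44 and -0.49.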
